A study of Mus musculus with 6 samples.

Results

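The genes described here are 8 chromatin cofactor genes, Phc2, Bcor, Gse1, Zmynd8, Bahcc1, Skida1, Mllt10 and Cxxc5, out of 21887 that RefSeq lists as protein-coding on GRCm38. They were chosen because many open elements in their loci carried histone H3 acetylated at lysine 27 (H3K27ac), so their counts of such elements are given as a description and nothing is read from them. The rule gave no lowest count. The 6 samples were preparations of mouse dorsal root ganglion neurons at embryonic stage E11.5: 2 for ATAC-seq, which marks open chromatin, 2 for H3K27ac ChIP-seq and 2 of input DNA. All 3 groups came from Runx3-BAC-GFP-CB6 transgenic mice, in which Runx3 sequences on a bacterial artificial chromosome drive GFP, and the submitters' titles call the cells TrkC neurons. Cells were fixed in paraformaldehyde and sorted for GFP, with 50000 cells per preparation; whether embryos were pooled was not given. There is a single condition, so no comparison between conditions exists.

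Transcriptional corepressors are proteins that DNA-binding factors recruit to lower transcription, often by bringing histone deacetylases, histone demethylases or Polycomb complexes to a gene. Polycomb repressive complex 1 (PRC1) ubiquitinates histone H2A, the CoREST complex joins the demethylase LSD1 to histone deacetylases, and NuRD joins deacetylases to a nucleosome remodeler. H3K27ac marks active promoters and enhancers, and long stretches of it often lie over genes that are strongly used in a cell type. The mark at a corepressor gene describes the state of that gene's own chromatin and says nothing of where its protein acts. Mllt10, also called AF10, is best known as a cofactor of the histone methyltransferase DOT1L, which accompanies elongating RNA polymerase, so it is a chromatin cofactor but not a corepressor in the usual sense.

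The files used here are 1 consensus list of peak positions per assay, with 43652 ATAC peaks and 19924 H3K27ac peaks on the assembled chromosomes. They hold no signal and no values per replicate, so depth is not known from them, the spread between preparations cannot be given, and no test between samples was possible. A peak list also cannot separate a mark present in all sorted cells from one present in some of them. All 6 sensory neuron markers checked had H3K27ac in the gene or at its ends, with 1 to 13 peaks each, among them Runx3 with 3 peaks and Ntrk3, which encodes TrkC, with 4. The transgene also carries Runx3 sequences, and its part in the Runx3 peaks was not tested. Of markers of other cells, 3 of 4 for glia and crest and 1 of 3 for endothelium had the mark there. So did 1 of 3 for blood and 2 of 4 for muscle and mesenchyme, and none of these genes had more than 2 peaks. Over all protein-coding genes 49.3% had the mark within 1 kb of an end, a narrower measure. Counted over the locus defined below, the sensory neuron markers had from 1 peak in Tubb3 to 17 in Elavl4. Markers of other cells had from 0, as in the erythroid globin gene Hbb-y, to 5 in Sox10. The part of such cells in the peaks of the 8 genes was not tested.

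RefSeq gives 17 start sites for 6 of the 8 genes. The 9 windows below, from 250 bases before to 50 after a start site, are the RefSeq GRCm38 reference sequence, printed 5′ to 3′ on the gene's strand; capitals mark each CpG, the dinucleotide that is lost from most of the genome but kept in CpG islands. The Phc2 windows are shown because its start sites differ in marks and in CpG. Of the rest, Mllt10 1 and 3 show starts of 1 gene with 7 and 43 CpG. Zmynd8 1 and Bahcc1 1 lie in the widest peaks, Gse1 3 is its open start, and Bcor 2 lies in a narrow peak.
Phc2 1, chr4:128654452-128654751, plus strand: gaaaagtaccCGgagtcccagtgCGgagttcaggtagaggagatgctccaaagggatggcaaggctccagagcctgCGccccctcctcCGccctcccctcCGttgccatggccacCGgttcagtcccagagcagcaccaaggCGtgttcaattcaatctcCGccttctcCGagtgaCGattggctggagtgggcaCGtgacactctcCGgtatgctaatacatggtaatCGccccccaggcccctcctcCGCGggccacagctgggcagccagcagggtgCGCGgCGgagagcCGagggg
Phc2 2, chr4:128688488-128688787, plus strand: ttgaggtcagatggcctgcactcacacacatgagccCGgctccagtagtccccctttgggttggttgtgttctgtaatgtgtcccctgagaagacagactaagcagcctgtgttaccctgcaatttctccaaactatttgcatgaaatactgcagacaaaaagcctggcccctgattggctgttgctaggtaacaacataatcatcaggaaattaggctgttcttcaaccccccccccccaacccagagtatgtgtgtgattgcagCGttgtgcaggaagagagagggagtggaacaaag
Phc2 3, chr4:128727321-128727620, plus strand: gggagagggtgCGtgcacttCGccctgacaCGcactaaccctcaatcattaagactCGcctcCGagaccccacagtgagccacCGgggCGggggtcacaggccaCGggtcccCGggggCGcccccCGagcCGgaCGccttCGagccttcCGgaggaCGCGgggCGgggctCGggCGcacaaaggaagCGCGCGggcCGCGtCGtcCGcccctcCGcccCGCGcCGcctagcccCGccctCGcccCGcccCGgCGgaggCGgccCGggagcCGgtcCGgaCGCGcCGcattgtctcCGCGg
Bcor 2, chrX:12160297-12160596, minus strand: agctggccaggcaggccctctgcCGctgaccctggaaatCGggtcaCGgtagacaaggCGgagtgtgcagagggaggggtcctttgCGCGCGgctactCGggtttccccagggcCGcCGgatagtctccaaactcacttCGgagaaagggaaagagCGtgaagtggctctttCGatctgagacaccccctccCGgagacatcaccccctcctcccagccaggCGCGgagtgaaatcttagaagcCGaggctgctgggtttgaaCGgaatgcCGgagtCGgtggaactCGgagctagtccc
Gse1 3, chr8:120537159-120537458, plus strand: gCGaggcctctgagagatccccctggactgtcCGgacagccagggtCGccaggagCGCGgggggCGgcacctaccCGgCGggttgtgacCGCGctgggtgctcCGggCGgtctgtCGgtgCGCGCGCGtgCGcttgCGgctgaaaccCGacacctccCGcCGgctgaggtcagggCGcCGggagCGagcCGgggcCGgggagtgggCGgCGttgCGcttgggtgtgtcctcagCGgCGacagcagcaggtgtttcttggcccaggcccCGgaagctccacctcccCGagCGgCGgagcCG
Zmynd8 1, chr2:165884789-165885088, minus strand: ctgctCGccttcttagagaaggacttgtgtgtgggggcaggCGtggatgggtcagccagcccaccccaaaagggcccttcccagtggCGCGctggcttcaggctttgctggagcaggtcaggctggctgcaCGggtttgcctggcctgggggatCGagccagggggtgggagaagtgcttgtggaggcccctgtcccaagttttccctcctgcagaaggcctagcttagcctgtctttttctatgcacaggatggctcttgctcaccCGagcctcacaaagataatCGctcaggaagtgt
Bahcc1 1, chr11:120232697-120232996, plus strand: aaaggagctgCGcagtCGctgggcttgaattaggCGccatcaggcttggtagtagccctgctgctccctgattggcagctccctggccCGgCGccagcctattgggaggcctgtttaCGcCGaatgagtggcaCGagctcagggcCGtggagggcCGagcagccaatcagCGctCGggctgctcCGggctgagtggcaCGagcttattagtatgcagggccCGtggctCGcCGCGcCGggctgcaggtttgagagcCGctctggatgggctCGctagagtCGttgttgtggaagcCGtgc
Mllt10 1, chr2:18054987-18055286, plus strand: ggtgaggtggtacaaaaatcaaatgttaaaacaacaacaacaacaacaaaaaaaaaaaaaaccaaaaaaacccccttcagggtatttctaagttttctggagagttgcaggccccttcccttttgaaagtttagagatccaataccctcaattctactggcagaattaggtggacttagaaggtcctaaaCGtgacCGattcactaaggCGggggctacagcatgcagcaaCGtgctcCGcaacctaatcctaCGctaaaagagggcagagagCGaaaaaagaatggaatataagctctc
Mllt10 3, chr2:18064335-18064634, plus strand: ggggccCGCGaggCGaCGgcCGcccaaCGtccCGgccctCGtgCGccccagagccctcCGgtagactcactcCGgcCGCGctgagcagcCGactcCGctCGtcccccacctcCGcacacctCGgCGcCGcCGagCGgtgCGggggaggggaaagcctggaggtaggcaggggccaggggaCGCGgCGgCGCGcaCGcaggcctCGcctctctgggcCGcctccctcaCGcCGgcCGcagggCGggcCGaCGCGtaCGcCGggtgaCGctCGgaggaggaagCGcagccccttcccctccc

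A locus was taken as the gene, 1 kb beyond each end, and the flanks up to the neighbouring protein-coding gene, at most 100 kb on a side. The loci of the 8 genes held 153 ATAC peaks, of which 91, or 59.5% (95% Wilson interval 51.6 to 66.9, counting error only), overlapped H3K27ac by at least 1 bp and are called acetylated below. Over the genome 17280 of 43652 ATAC peaks, 39.6%, were acetylated. All 8 loci reached the 95th percentile of protein-coding loci, 3 acetylated peaks, a level that 10.2% of all protein-coding loci reached; the genes had been chosen on this measure. The counts were 25 in Gse1, 21 in Cxxc5, 11 each in Bcor and Bahcc1, 8 in Phc2, 6 in Skida1, 5 in Zmynd8 and 4 in Mllt10, against a median of 1 over all loci. Gse1 had the highest count of all genes and Cxxc5 the next. Longer loci can hold more peaks: the median locus was 179638 bp for the 8 genes and 67422 bp for all, and per 100 kb of locus only Cxxc5, at 13.6, passed the 95th percentile of 11.9. By that measure the other 7 ranged from 2.34 in Zmynd8 to 10.3 in Skida1, with a median over all loci of 0.67.

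**Figure D1:**
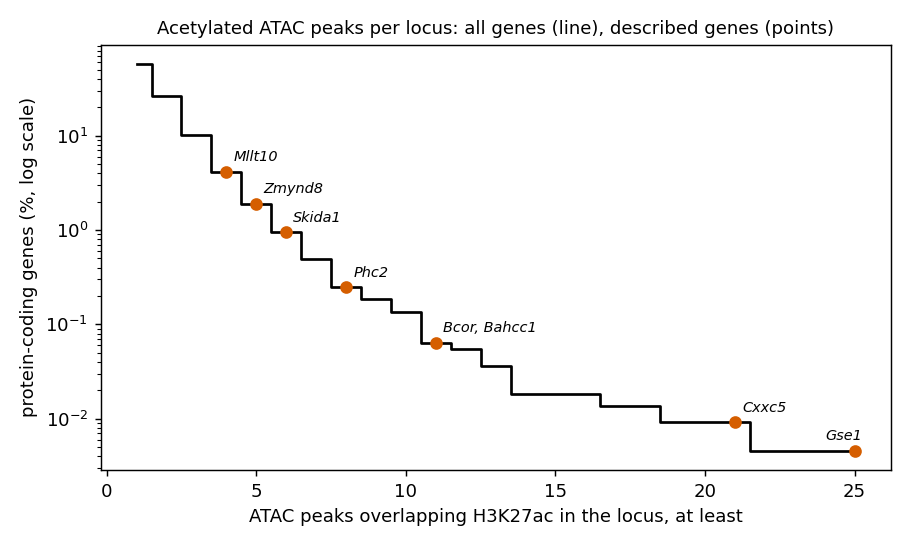
Share of protein-coding genes (y axis, percent, log scale) whose locus holds at least the number of acetylated ATAC peaks on the x axis; the line is all genes and each point is 1 of the 8 genes at its own count. The points run from Mllt10 at 4 peaks to Gse1 at 25, and the genes were selected on this count.

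The H3K27ac peaks of the 8 loci numbered 87 and covered 210 kb, in 29 domains when peaks within 10 kb were joined. By locus the mark covered from 13.4 kb in Mllt10 to 50.5 kb in Gse1, against a median of 754 bp over all protein-coding loci. These lengths were part of what chose the genes. What differed among the 8 was the form of the acetylation, which is taken in turn below by the complex each protein belongs to.

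**Figure D2:**
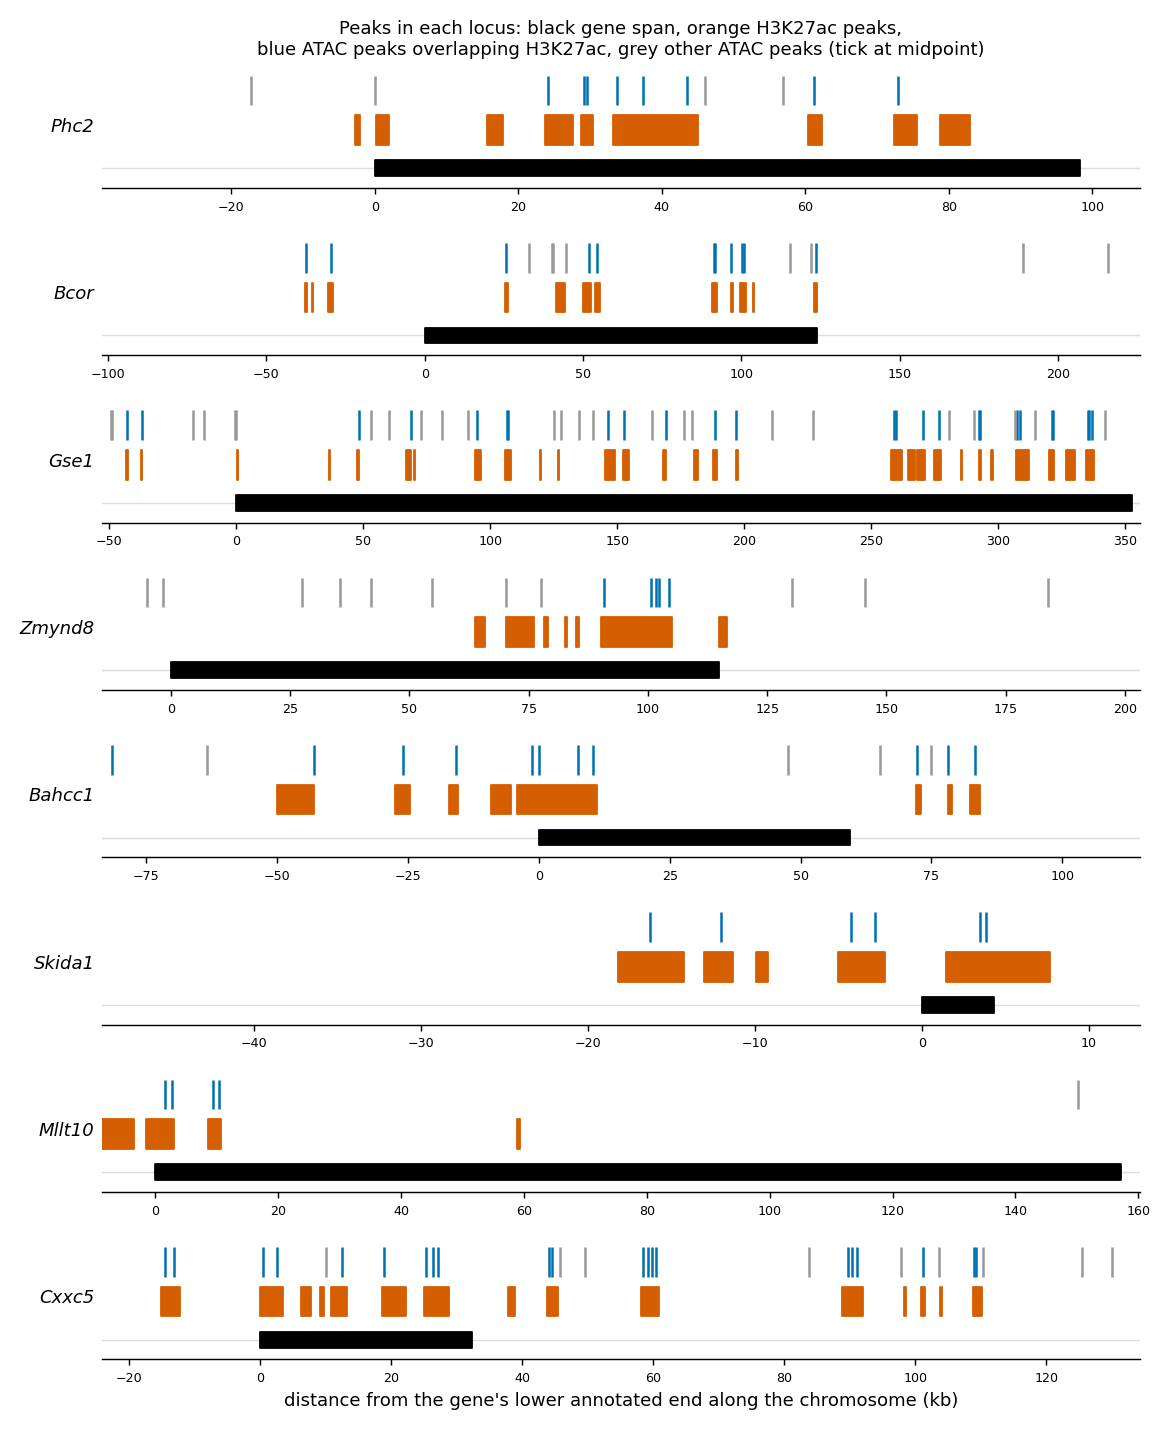
Peaks along the 8 loci, with distance in kb from the lower annotated end of each gene on the x axis; black bars are genes, orange bars H3K27ac peaks, blue ticks ATAC peaks that overlap H3K27ac and grey ticks other ATAC peaks. The acetylation of Zmynd8 lies on the 5′ side of the gene, that of Gse1 lies in separate peaks on both sides of its midpoint, and that of Cxxc5 and Bahcc1 extends into the flanks.

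Phc2 and Bcor encode Polycomb proteins. Phc2, a polyhomeotic subunit of canonical PRC1 (gene 54383, plus strand, chr4:128654655-128752881), had 12 ATAC peaks in its locus, 8 of them acetylated, all 8 inside the gene. Its H3K27ac came as 9 peaks covering 31.5 kb, between Tlr12 and A3galt2, and 1 of them was 11902 bp wide, the 17th widest of all. That peak, chr4:128687861-128699762, began 33.2 kb inside the gene and held 3 ATAC peaks and the second start site. The ATAC peak at the 5′ end of Phc2 was not acetylated: the nearest H3K27ac there began 238 bp inside the gene, in a peak of 1745 bp with no ATAC peak.

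Bcor, the BCL6 corepressor and a subunit of a variant PRC1 (gene 71458, minus strand, chrX:12036737-12160516), had the least broad acetylation of the 8 by its widest peak. Its locus held 19 ATAC peaks, of which 11 were acetylated, and 12 H3K27ac peaks from 340 to 2740 bp, covering 15.1 kb. The 2740 bp peak ranked 1395th in width. The highest-ranking joined domain of Bcor was 233rd of 16290, whereas each of the other 7 genes had a domain among the first 22. The peaks were spread over the gene, with 4 H3K27ac peaks on the 5′ side of its midpoint and 4 on the 3′ side, and 3 more were centred 29800 to 37605 bp beyond its 3′ end. The nearest protein-coding genes, H2al1j and Atp6ap2, were 709 and 427 kb away.

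Gse1, a partner of the CoREST complex (gene 382034, plus strand, chr8:120228501-120581383), spans 353 kb and had many peaks of moderate width. Its locus held 50 ATAC peaks, 25 of them acetylated, and 28 H3K27ac peaks covering 50.5 kb, the 10th longest coverage of all loci. The widest peak was 4878 bp and ranked 234th. Inside the gene, 14 H3K27ac peaks lay on the 3′ side of the midpoint and 11 on the 5′ side, and for acetylated ATAC peaks the counts were 15 and 8. The last 11 peaks joined into a domain of 80.1 kb holding 28.5 kb of H3K27ac, the 6th of all domains by covered length. Both ATAC peaks at the annotated 5′ end of Gse1 were not acetylated, and the mark there was a peak of 330 bp. The widest peak lay 307 kb inside the gene, at chr8:120535731-120540608, and holds the start shown above as Gse1 3.

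Zmynd8 and Bahcc1 encode readers of histone marks. Zmynd8, a bromodomain, PHD and PWWP protein that works with NuRD (gene 228880, minus strand, chr2:165784152-165898981), had all 7 of its H3K27ac peaks in 1 domain of 52.8 kb at its 5′ side, covering 26.4 kb. All 6 H3K27ac peaks and all 5 acetylated ATAC peaks inside the gene lay on the 5′ side of its midpoint. One of the 7 peaks, chr2:165874394-165889294, was 14901 bp wide, the 10th widest of all, and held all 5 acetylated ATAC peaks of the locus. The other 11 of 16 ATAC peaks, 5 of them in the flanks, were not acetylated, so the acetylated share of 31.3% (14.2 to 55.6) was the lowest of the 8 loci. No ATAC peak lay at either annotated end of Zmynd8, and its 5′ end, at LOC115489489's side, had an H3K27ac peak of 1754 bp.

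Bahcc1, a BAH-domain protein that binds trimethylated lysine 27 of histone H3 (gene 268515, plus strand, chr11:120232870-120292297), had the 9th widest H3K27ac peak of all, 15347 bp. This peak, chr11:120228701-120244047, covered the 5′ end of the gene, reached 11177 bp into it and held 4 ATAC peaks. The locus held 15 ATAC peaks, 11 acetylated, of which 8 lay in the flanks toward Slc38a10 and Actg1, 1 at the gene end and 2 inside. Both neighbours share these flanks with Bahcc1, and their own loci held 6 and 7 acetylated ATAC peaks. One of the flank peaks was within 1 kb of an end of Slc38a10. In the upstream flank, a second broad H3K27ac peak, 7075 bp wide and centred 46490 bp before the gene, held 1 ATAC peak. The rest of Bahcc1 held no H3K27ac peak.

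Skida1 and Mllt10 are neighbours on chromosome 2, separated by 6.71 kb. Skida1, a small gene for a Ski/Dach-domain protein (gene 72668, chr2:18044087-18048449), had 6 ATAC peaks and all 6 were acetylated (61.0 to 100%), 2 at its ends and 4 in the flank toward H2al2a. H2al2a shares that flank, and its locus also held 4 acetylated ATAC peaks. Mllt10 (gene 17354, plus strand, chr2:18055160-18212390) had 5 ATAC peaks, of which 4 were acetylated, the farthest ending 10453 bp into the gene. One H3K27ac peak of 6219 bp began in Skida1 and ran into the interval between the genes, so it is counted in both loci. Joined within 10 kb, the marks of both genes form a single domain, chr2:18025865-18065845, with 7 peaks covering 22.2 kb, the 12th of all domains. The rest of Mllt10, up to Dnajc1, held 1 H3K27ac peak of 491 bp and 1 ATAC peak, which lay 90709 bp from any H3K27ac peak.

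Cxxc5 encodes a CXXC zinc finger protein that binds unmethylated CpG and modulates Wnt and BMP signalling (gene 67393, chr18:35829379-35861693). Its locus was the densest of the 8, with 30 ATAC peaks, 21 of them acetylated, in 155 kb. The gene is short, 32.3 kb, and 14 of the 21 lay in the flanks toward Ube2d2a and Psd2, against 6 inside and 1 at an end. H3K27ac formed 15 peaks covering 29.6 kb, none wider than 3816 bp, and 8 of them joined into a domain of 45.5 kb that covers the gene. A second domain of 5 peaks began 88.8 kb from the lower end of Cxxc5. Psd2 shares the flank between the genes, and 12 acetylated ATAC peaks fell in its locus as well.

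**Figure D3:**
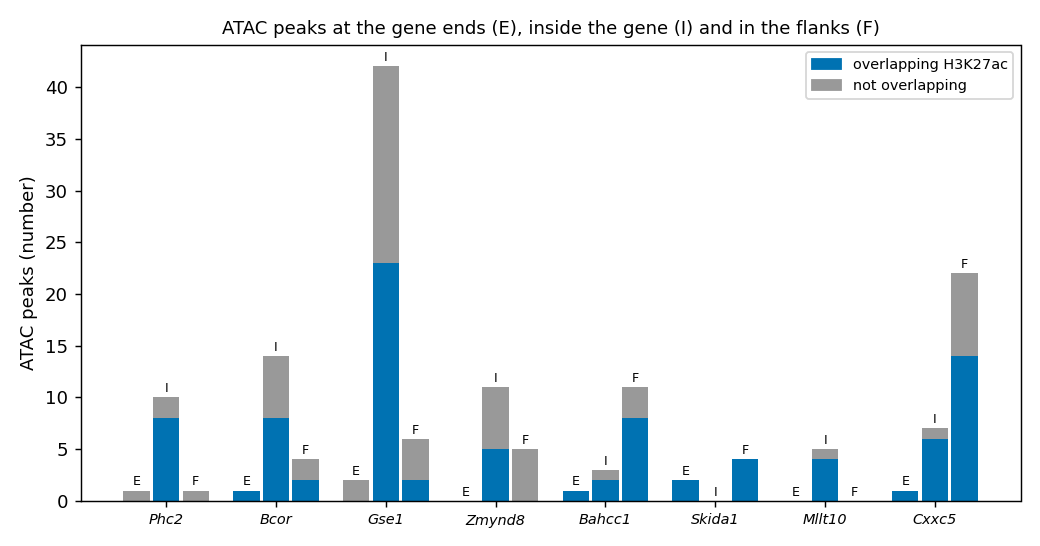
Number of ATAC peaks (y axis) at the gene ends (E, within 1 kb), inside the gene (I) and in the flanks (F) of each locus; blue is the part that overlaps H3K27ac and grey the rest. Gse1 has 42 peaks inside the gene, and in Cxxc5 and Bahcc1 the flanks hold 22 and 11.

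By position, 92 of the 153 ATAC peaks lay inside a gene, 53 in flanks and 8 at gene ends. The acetylated share was 60.9% inside genes (50.7 to 70.2), 56.6% in flanks (43.3 to 69.0) and 62.5% at the ends (30.6 to 86.3). Over the whole genome the shares were 26.6% inside genes, 16.6% between genes and 72.8% at gene ends. The genome classes differ from those of the loci. Peaks near any gene end are counted only as gene ends, and peaks between genes have no distance limit. The genes were chosen on this overlap and the share at the ends rests on 8 peaks, so nothing is read from these differences. At the ends themselves, 6 of 8 genes had an ATAC peak, all but Zmynd8 and Mllt10, where 60.4% of all genes did. All 8 had H3K27ac within 1 kb of an end, where 49.3% of all genes did.

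ATAC peaks that missed the mark were often close to it. Of 62 such peaks in the 8 loci, 17, or 27.4% (17.9 to 39.6), lay within 1 kb of an H3K27ac peak, and the median distance was 4608 bp. Over the genome 7.48% of unacetylated ATAC peaks lay that close and the median was 29961 bp; loci with many H3K27ac peaks were chosen, so this gap is a description. In Cxxc5 5 of 9 were within 1 kb, in Gse1 5 of 25, in Bcor 3 of 8, in Phc2 2 of 4, in Zmynd8 2 of 11 and in Bahcc1 0 of 4. The acetylated ATAC peaks had a median width of 269 bp and the others of 186.5 bp; over the genome the medians were 365 and 165 bp.

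H3K27ac also occurred without open chromatin called inside it. Of the 87 H3K27ac peaks, 56 held an ATAC peak, 64.4% (53.9 to 73.6), and 68.9% of all H3K27ac peaks did. The median H3K27ac peak was 2125.5 bp wide with ATAC inside and 710 bp wide otherwise, against 1231 and 602 bp over the genome. The widest without an ATAC peak was 5717 bp, inside Zmynd8, where the nearest ATAC peak was 23 bp from its edge. In Zmynd8 only 1 of 7 H3K27ac peaks held ATAC, in Bahcc1 7 of 8, in Skida1 4 of 5, in Bcor 9 of 12, in Cxxc5 10 of 15, in Gse1 18 of 28 and in Phc2 5 of 9. Of the 31 peaks without, 10 lay within 1 kb of an ATAC peak. Because both thresholds are unknown, a peak missing from a list is not shown to be absent from the cells.

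**Figure D4:**
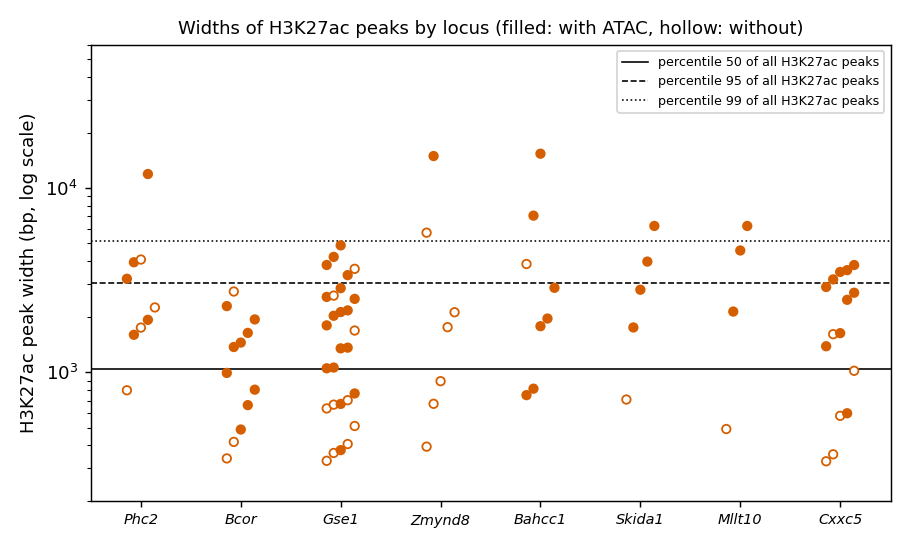
Width of every H3K27ac peak in the 8 loci (y axis, bp, log scale), filled where it holds an ATAC peak and hollow where it does not; the lines are percentiles 50, 95 and 99 of all H3K27ac peaks. Single peaks of Zmynd8, Bahcc1 and Phc2 lie above 10 kb, while those of Bcor stay under the line of the 95th percentile.

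The widths fell into different forms. H3K27ac peaks over 10 kb made up 0.115% of all H3K27ac peaks, 23 in number, and 3 of them lay in Zmynd8, Bahcc1 and Phc2. Of 423 peaks over 4 kb, 10 lay in the 8 loci. These single peaks made up 14901 of 26446 bp in Zmynd8, 15347 of 34449 bp in Bahcc1 and 11902 of 31456 bp in Phc2. Gse1, Cxxc5 and Bcor had none wider than 4878 bp and reached their totals by number, 28, 15 and 12 peaks. The median width over the 87 was 1754 bp, against 1036 bp over all H3K27ac peaks. Breadth of the mark was part of what chose the genes, so these widths are a description.

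More of the start sites had H3K27ac than open chromatin. Of the 17 windows, 16 overlapped an H3K27ac peak, where 45.4% of all 21263 promoters did, and 7 overlapped an ATAC peak, where 54.5% did. The genes were chosen for open elements with H3K27ac, and starts with both marks are part of that count. Both shares are therefore a description, and nothing is read from their difference. Both marks lay on 6 windows and H3K27ac alone on 10, of 4 genes; 3.33% of all promoters had H3K27ac alone. Those 10 are not independent, since the starts of 1 gene share peaks: 4 are in Zmynd8, 2 in Gse1, 2 overlapping windows in Bcor and 2 in Mllt10. Several missed an ATAC peak narrowly, by 24 and 15 bp in Bcor, 154 and 71 bp in Gse1, and 889 and 398 bp in Mllt10, and in Zmynd8 the gaps were 2161 to 4286 bp. The only window with ATAC alone, Phc2 1, was also a near miss: its ATAC peak lay 57 bp from an H3K27ac peak.

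Start sites of 1 gene differed in composition and marks. Phc2 1 had a ratio of observed to expected CpG of 0.61 and only ATAC, Phc2 2 had 0.11 and both marks, and Phc2 3 had 1.02 and both, with a GC content of 77.0%. The middle window, with few capitals above, thus lies in the 11902 bp H3K27ac peak, and the window dense in capitals in one of 3213 bp. In Mllt10, starts 1 and 2, at 0.52 and 0.45, had H3K27ac alone, and start 3, at 0.94 and 9425 bp into the gene, had both marks. All 3 Gse1 starts were CpG-rich, at 0.82, 0.77 and 0.90, and only the last was open. Zmynd8 1 to 4 lay between 0.24 and 0.39 inside the single 14901 bp peak, below the median of 0.57 over all promoters. Zmynd8 5, at 0.67, was above that median and lay in the 5717 bp peak. Over all promoters the median was 0.83 with both marks, 0.53 with H3K27ac alone, 0.65 with ATAC alone and 0.20 with neither; the medians of the 17 windows were 0.82 with both marks and 0.59 with H3K27ac alone.

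**Figure D5:**
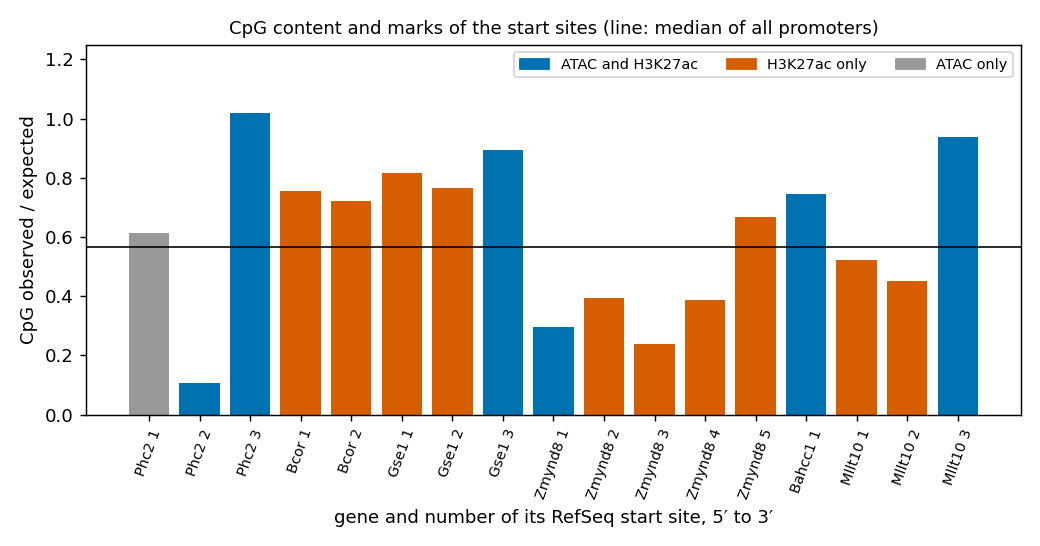
Ratio of observed to expected CpG (y axis) in the window of each RefSeq start site, coloured by the peaks that overlap it; the horizontal line is the median of all promoters, 0.57. Phc2 2, at 0.11, has both marks and the lowest ratio, and Phc2 3, at 1.02, has both and the highest.

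Short motifs were counted in the 17 windows on both strands. GGGCGG, the GC box, was in 6 (46.2% of all promoters), with 6 copies in Phc2 3, 3 in Gse1 3 and 2 in Mllt10 3. CCAAT was in 6 (38.2%), with 3 copies in Bahcc1 1. CCCNNGGG, the core of Ebf sites, was in 4 (15.6%), Zmynd8 5, Phc2 3, Bcor 1 and Bcor 2. The Bcor windows overlap and share the same match. The octamer ATGCAAAT, read by POU factors, was in 2 (1.66%), Phc2 2 and Gse1 1. The E-boxes CAGCTG and CAGATG were in 1 each (15.6% and 14.6%), both in Phc2, and TGTGGT, the core bound by Runx factors, in 1 (15.0%), Mllt10 2. TGACGTCA was in none (2.23%). A match describes letters in these windows and is not a binding site.

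The loci also hold 26 long non-coding RNA genes. H3K27ac lay within 1 kb of an end of 19 and ATAC of 15; over 12727 such genes 18.0% had H3K27ac at an end and 25.7% had ATAC. They lie in loci chosen for these marks and often share the peaks already counted. In Zmynd8, 1810021M19Rik had 3 acetylated ATAC peaks at its ends, within the 14901 bp peak. In Gse1, Gm51556 and 1700016A09Rik had 2 each, and the span of the latter holds the start of Gse1 3. In Cxxc5, Gm36315 had 4, and in Bahcc1 2900052L18Rik, upstream of the gene, had 1.

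Most genes of 11 lists of corepressor complexes, related domain families and paralogues were acetylated at an end. Of the 118 genes in these lists, 105 had ATAC and 101 H3K27ac within 1 kb of an end, and 40 reached 3 acetylated ATAC peaks, beside 60.4%, 49.3% and 10.2% of all protein-coding genes. Their median was 2 acetylated peaks and 2290.5 bp of H3K27ac per locus, against 9.5 and 28045.5 bp for the 8 genes and 1 and 754 bp over all. The 8 genes were chosen on these measures, so the gap is not a result about them. The lists were drawn up with earlier results of these data known, so their shares beside all genes are a description too. Among 24 PRC1 genes 20 had an acetylated end, all but Bcorl1, Cbx7, Pcgf5 and Usp7; Auts2 had the most acetylated peaks, 10. In the list of NuRD and ZMYND8 partners the count was 17 of 18, without Chd5, and Chd4, the remodeler of NuRD, had 5, followed by Cdk2ap1, Chd3, Zfp532 and Zfp592 at 4. In CoREST it was 11 of 13, without Hmg20b and Zmym3, and Ctbp2 and Phf21a had 4 each.

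All 8 genes of the NCoR list had an acetylated end, and Tbl1x had 3 acetylated ATAC peaks. In SIN3 all 14 had an acetylated end, with 4 peaks for Sin3a and 3 each for Ing1 and Sap30. Of 13 DOT1L and elongation genes 11 did, without Aff3 and Ell3, with Mllt6 at 4 and Mllt3 at 3. The CXXC list had 9 of 11, without Dnmt1 and Tet1, and Fbxl19 and Tet3 had 4 each. The Ski and Dach list had 4 of 6, without Dach2 and Skor1, though Skor1 and Ski each had 5 acetylated peaks in the locus. Groucho genes had 4 of 6, without Tle2 and Tle6, led by Tle3 at 4; Tle1, Tle4 and Tle5, matched through the older name Aes, had 2 each. Class IIa deacetylase genes had 2 of 4, without Hdac7 and Hdac9, with 5 peaks for Hdac4 and 2 each for Hdac5 and Hdac9.

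The 8 listed paralogues had fewer acetylated peaks than the gene each is related to, except Mllt6. Phc1 had 1 and Phc3 had 3, against 8 for Phc2. Bcorl1 had 3 against 11 for Bcor, and Tnrc18 and Bahd1, BAH-domain genes like Bahcc1, had 3 and 1 against 11. Zmynd11 had 4 against 5 for Zmynd8, Mllt6 had 4 as did Mllt10, and Cxxc4 had 3 against 21 for Cxxc5. The loci differ in length. Per 100 kb Mllt6, at 7.05, was above Mllt10, at 2.43, and Zmynd11, at 2.03, was close to Zmynd8, at 2.34. Each of the other paralogues was also below its gene by that measure. By length of H3K27ac, the Tnrc18 locus held 15.9 kb, against 34.4 kb in Bahcc1, and its widest peak was 13052 bp. That total was above those of Mllt10, Bcor and Skida1. The other paralogues held at most 6.64 kb, in Cxxc4. Tle3, of the Groucho list, held 18.7 kb, and its widest peak was 13364 bp. Single peaks this wide thus also lay in listed genes outside the 8. Since each of the 8 genes was taken for a high count, a lower count in its paralogue is a description.

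The genes outside the group most like its median, by distance in log2(1 + value) of ATAC peaks, acetylated ATAC peaks and H3K27ac length in the locus, were Ssbp3, Nfia, Creb5, Chst8 and Aopep. Their loci held 10, 8, 10, 10 and 9 acetylated peaks and 29.9, 25.4, 21.2, 22.1 and 37.9 kb of H3K27ac.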

How the data were processed

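ATAC-seq, H3K27ac ChIP-seq and input DNA were each prepared in duplicate from sorted neurons. Per the submitters' processing notes, the tools were cutadapt 1.18, Bowtie2 2.3.5.1, bedtools and MACS2 (the last pair without a version) and the build was mm10. For each assay the authors deposited 1 consensus list that gives only where each peak begins and ends, in bp; the thresholds and the way the consensus was formed are not given in the sources used here. Input DNA has no list used here, and no column of another sample was found.

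Peaks on unplaced sequences were left out, 43739 ATAC and 19928 H3K27ac peaks being deposited. Genes came from RefSeq GRCm38, the assembly of mm10, as gene spans without exons, so exonic and intronic peaks were not separated. Overlap means at least 1 bp; peaks were assigned to gene ends, genes or flanks by position, and H3K27ac peaks within 10 kb were joined. Promoter windows came from the RefSeq table of the same assembly. Counts, overlaps and Wilson intervals were computed with Python 3.11.15, pandas 2.3.3 and numpy 2.4.6, and tested on simulated data; no statistical test was run. The 8 genes, the 11 lists of 125 entries (118 genes) and the motifs were chosen with earlier results of these data known. Other genes named are the neighbours, the paralogues, the leading pair of each list, ties in symbol order, with the tied genes added after their values were seen (3 of these genes are not reported here), list members that are exceptions where 5 or fewer are, and the 5 genes nearest the median of the 8. Marker genes and example non-coding genes are named besides, the latter after their values were seen. The alternatives changed the flanks, the overlap, the joining distance, the peak widths kept and the locus scale.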

Additional observations from a re-analysis of the deposited data

How the results depend on the processing

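Totals over the 8 loci, counts of the 8 genes past a percentile and the count of listed genes acetylated at an end were recomputed under 11 other settings of the flanks, overlap, joining distance, peak filter and locus scale, and 47 of 53 such values stayed within 1.5 times the value given or, for the acetylated share, within its interval. Without flanks the ATAC peaks fell from 153 to 100. With only the wider 50% of each list there were 90 ATAC peaks, 60 of them acetylated. Joining H3K27ac peaks within 5 kb gave 49 domains and within 20 kb 16. Per 100 kb of locus 1 gene, Cxxc5, reached the 95th percentile. For single loci, 56 of 64 acetylated counts stayed within 1.5 times. With the wider 50% of each list they were 2 in Zmynd8, 15 in Gse1, 4 in Bcor and 13 in Cxxc5; without flanks 3 in Bahcc1, 2 in Skida1 and 7 in Cxxc5; and with flanks to halfway between genes 13 in Cxxc5. The acetylated share ranged from 56.2 to 66.7%. No paired analysis was possible because the lists hold no values per replicate. For the same reason leaving out a replicate was not run, and depth limits cannot be given.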
